A study of Mus musculus with 6 samples.

Results

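Mast cells of the inflamed synovium were taken as the cells with at least 2 of the transcripts Mcpt4, Tpsb2, Cpa3 and Cma1, each with a count of 1 or more, and no count of Mcpt8, a protease transcript of basophils. The rule found 186 of 32953 cells in the table of single-cell RNA counts, or 0.564% (95% exact Clopper-Pearson interval 0.486% to 0.651%, covering counting error only). The cells came from digested synovium of male C57BL/6 mice, 8 weeks old at purchase, with antigen-induced arthritis: the mice had been immunized with 10 µg methylated bovine serum albumin (mBSA) in complete Freund's adjuvant and challenged with 100 µg mBSA in the joint on day 21. Cells carrying the leukocyte surface protein CD45 were sorted on day 3 after the challenge, from 2 samples of mice given phosphate-buffered saline (PBS) and 4 samples of mice given 300 µg of the peptide PEPITEM, and their RNA was read at the 3′ end.

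The table numbers its libraries 1 to 6, and no source used here links those numbers to the samples. PBS and PEPITEM were therefore not compared. The 6 libraries are of unknown treatment and are not replicates of a group, so each level below is a pooled value with the range over libraries and carries no test. Levels are unique molecular identifiers (UMIs, tags that mark single RNA molecules) of a gene scaled to 1000000 UMIs of the pooled cells, abbreviated CPM. They count molecules by their 3′ ends and are compared between groups of cells, not between genes. The mast cells held 1139916 UMIs in all, from 87104 in library 3 to 334095 in library 5. A mast cell held a median of 4600.5 UMIs (range 701 to 68125) and 1791.5 genes, when compared to 11438 UMIs and 2919 genes in the other cells. Of the barcodes of mast cells, 3 were also found in another library and none was shared by mast cells of different libraries.

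Mast cells are long-lived tissue leukocytes that arise from bone marrow or earlier precursors and mature in the tissue under stem cell factor, the ligand of the receptor Kit. They store proteases, histamine and other amines on serglycin proteoglycan in cytoplasmic granules, and release them when IgE bound to its high-affinity receptor is crosslinked or when other receptors are engaged. In connective tissue such as the joint capsule their granules carry chymases, tryptases and a carboxypeptidase, and they are known to be present in the synovium of healthy and arthritic joints.

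The sequences before the start sites of 3 of the 4 genes that define the cells are shown because the finding of these transcripts together is what the cells share. Tpsb2 had no entry among the promoters. Mcpt4 lies at chr14:56059629-56062313 and Cma1 at chr14:55941451-55944675, both on the minus strand and both encoding chymases. Cpa3, the mast cell carboxypeptidase, lies at chr3:20215620-20242181 on the minus strand. Tpsb2, a tryptase gene, lies at chr17:25366305-25369098 on the plus strand. These positions are from GENCODE on build GRCm38, also called mm10. The promoter sequences, from RefSeq on GRCm38.p6, are the 250 bases before the start sites at chr14:56062311-56062560, chr14:55944676-55944925 and chr3:20242182-20242431, written 5′ to 3′ along the gene. Capitals mark GATAA or its reverse complement TTATC, the core of the sequence to which GATA factors such as Gata2 bind.
Mcpt4: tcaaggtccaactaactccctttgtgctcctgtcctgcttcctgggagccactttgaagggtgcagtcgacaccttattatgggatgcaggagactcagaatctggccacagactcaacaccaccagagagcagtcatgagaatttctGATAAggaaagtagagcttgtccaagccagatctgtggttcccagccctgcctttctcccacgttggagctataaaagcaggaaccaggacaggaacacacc
Cma1: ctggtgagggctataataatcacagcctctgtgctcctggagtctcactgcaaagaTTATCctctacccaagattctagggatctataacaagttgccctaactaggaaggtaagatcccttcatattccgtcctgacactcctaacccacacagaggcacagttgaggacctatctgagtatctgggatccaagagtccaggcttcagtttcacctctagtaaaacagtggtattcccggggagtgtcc
Cpa3: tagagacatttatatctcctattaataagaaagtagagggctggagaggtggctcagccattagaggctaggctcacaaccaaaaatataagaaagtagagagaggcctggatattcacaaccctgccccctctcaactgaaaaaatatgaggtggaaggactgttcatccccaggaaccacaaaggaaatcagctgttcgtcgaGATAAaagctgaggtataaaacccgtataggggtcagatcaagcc
Each of the 3 holds the letters once. Of the 25 genes with the largest fold in mast cells, listed further on, 22 had a promoter entry, and 6 of these (27.3%) held GATAA on either strand. Of all 32851 promoter windows of the same length, 22.6% did. A match is a description of the letters and not a bound site.

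Most cells lay far from the limit of the rule. Of the 186 mast cells, 179 held all 4 transcripts, 3 held 3 and 4 held 2. Just outside the rule, 342 cells held exactly 1 of the 4 with no Mcpt8, and their median was 1 UMI of it with a highest count of 54. Just inside it, the 4 cells with 2 of the transcripts held 2, 4, 4 and 36 UMIs of them. Among the 342 cells the transcript was Cpa3 in 164, Cma1 in 114, Mcpt4 in 40 and Tpsb2 in 24. The 4 transcripts together made up a median of 4.38% of the UMIs of a mast cell (range 0.0234% to 16.6%) and 3.93% of their pooled UMIs. Of all Mcpt4 UMIs in the table, 92.3% were in the mast cells, and the shares were 93.9% for Tpsb2, 89.0% for Cma1 and 69.3% for Cpa3. These values chose the cells and are given as a description.

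The name was checked against 12 transcripts that the rule did not use: Kit, the IgE receptor subunits Fcer1a and Ms4a2, the histamine and amine genes Hdc, Slc18a2 and Tph1, the transcription factor Gata2, the receptors Mrgprb1 and Mrgprb2, and Cyp11a1, Hpgds and Rab27b. A mast cell held a median of 10 of the 12, and 157 of 186 (84.4%) held at least 8. All 12 were found in 35 cells. Only 4 mast cells held fewer than 3, of which 3 were among the 4 cells with 2 rule transcripts and 1 was a cell with all 4. Cells with exactly 1 rule transcript and no Mcpt8 held a median of 1 of the 12, and the 91 with 1 rule transcript and Mcpt8 a median of 5. Each of the 12 was also called higher in mast cells than in all other cells by the 4-fold rule given below. Against the 61 basophil-type cells described further on, only 6 of the 12 were called higher and none lower. Of all genes tested against those cells, 4.78% were called higher and 3.87% lower.

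**Figure D1:**
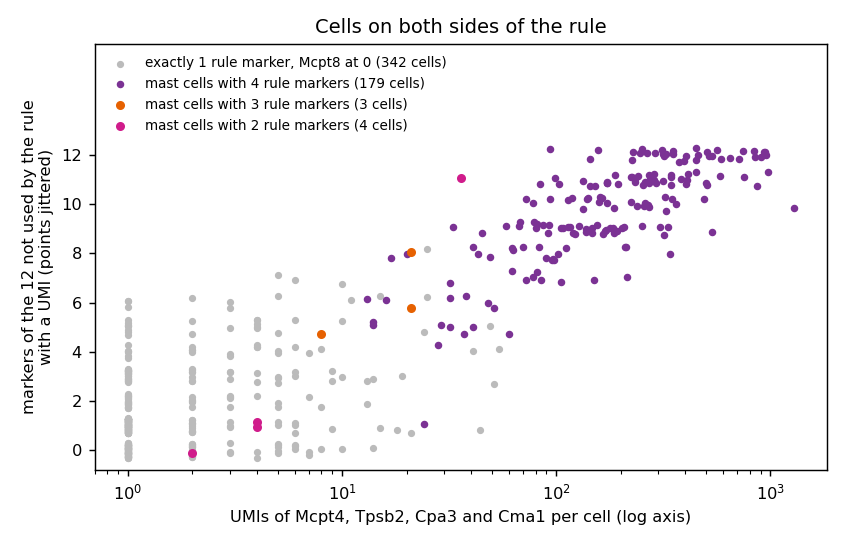
Each point is a cell: the horizontal axis gives its UMIs of Mcpt4, Tpsb2, Cpa3 and Cma1 (log axis), and the vertical axis how many of the 12 markers not used by the rule it held. Most of the 179 cells with 4 rule transcripts lie at 8 or more markers, while the 342 cells with 1 rule transcript (grey) have a median of 1.

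A further 11 cells held at least 2 of the 4 transcripts together with Mcpt8 and were left out by the rule. Of these, 9 held all 4, 8 had a single Mcpt8 UMI, and their median was 11 of the 12 markers. Kit, which the rule did not use, had 1126 CPM in these cells and 1312 CPM in the mast cells. They carried 97.5% of the Mcpt4 UMIs and 94.2% of the Tpsb2 UMIs found outside the mast cells. For Cma1 the share was 77.9% and for Cpa3 32.2%. Without the 11 cells, the other cells held 0.0865 CPM of Mcpt4 and 0.0536 CPM of Tpsb2.

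The share of mast cells differed between libraries. It was 1.14% (0.805% to 1.56%) in library 1, 0.258% (0.145% to 0.426%) in library 2 and 0.514% (0.288% to 0.846%) in library 3. It was 0.851% (0.590% to 1.19%) in library 4, 0.706% (0.547% to 0.898%) in library 5 and 0.239% (0.142% to 0.377%) in library 6. These are exact 95% intervals, and the highest share was 4.77 times the lowest. Libraries 1, 4 and 5 lay above libraries 2 and 6 with no overlap of the intervals, and the interval of library 3 overlapped those of all the others. The counts behind these shares were 38, 15, 15, 34, 66 and 18 mast cells. Neutrophil-type cells, defined by at least 4 of 8 neutrophil transcripts without Csf1r, made up 8.43% to 39.6% of the libraries, and with them left out the mast cell shares ran from 0.328% in library 2 to 1.29% in library 1. Libraries 1, 4 and 5 were then the highest as well. In sorted cells, fewer mast cells and more of the other leukocytes cannot be told apart.

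**Figure D2:**
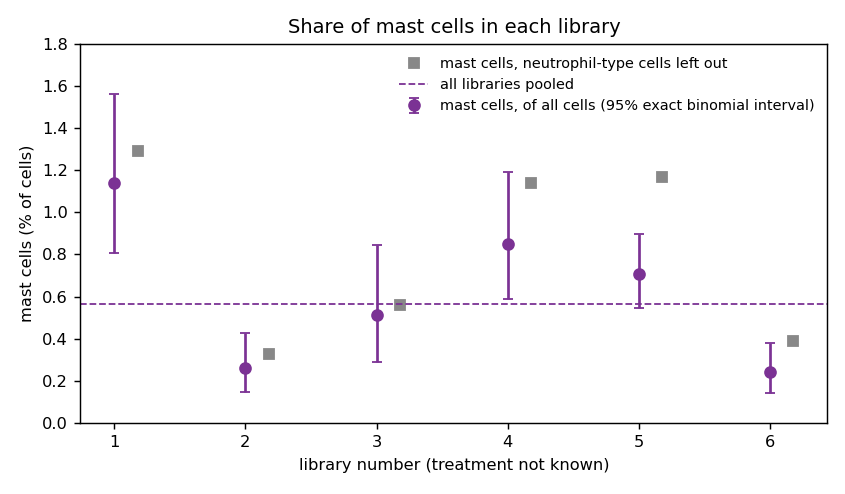
The share of mast cells among all cells of each library is plotted in percent with exact 95% intervals (circles), with the pooled share as a dashed line and the share after leaving out neutrophil-type cells as squares. Libraries 1, 4 and 5 lie above libraries 2 and 6 by either measure.

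Transcripts of neutrophils were found in 104 of 186 mast cells, and their amount differed between cells and between libraries. Of the 6 lists of markers of other lineages, the neutrophil list alone passed 5% of the UMIs in any mast cell, which it did in 29 of 186 cells. These 29 cells were 17 of 66 in library 5 and 4 of 15 in library 2, but 1 of 18 in library 6 and 2 of 34 in library 4. S100a8, which encodes a subunit of calprotectin, was found in 28.0% of mast cells, when compared to 7.20% of B-type cells, which should lack it, and 99.9% of neutrophil-type cells. Its level in mast cells was lowest at 7211 CPM in library 6, had a median of 11035 CPM and was highest at 31468 CPM in library 2. The summed neutrophil list had 45402 CPM in mast cells and 126149 CPM in the other cells, with the most UMIs in S100a9 and none of its 10 genes at 0. Retnlg, Ngp, Camp, Ltf, Lcn2, Mmp8 and Csf3r were also above 100 CPM in mast cells, and without the 29 cells they lay between 2.51 CPM for Mmp8 and 47.6 CPM for Retnlg. Of the 10 genes 1, Ngp, was called lower by the 4-fold rule given below, with 0 to 5 called when 1 library was left out. All 10 were called without the 29 cells, which the choice of those cells by their neutrophil UMIs fixes.

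The 157 mast cells under 5% held 191 CPM of S100a8 and a median of 4016 UMIs per cell. The 29 at or above 5% held 56017 CPM and a median of 7481 UMIs. Mcpt4 had 21610 CPM in the former and 7981 CPM in the latter, and Kit had 1614 and 608 CPM. Unless a sentence names other cells or libraries, mast cell levels in the following paragraphs were computed with all 186 cells. Calls without the 29 were made with those cells counted among the others. Over 10623 genes tested in this way, 871 (8.2%) were called higher and 850 (8%) lower, when compared to 680 and 534 of 10414 with all mast cells (6.53% and 5.13%, given with the 4-fold rule below), and 26 of the 269 listed or leading genes then changed their call, 18 of them to lower, 6 to higher and 2 to no call. The part of neutrophil RNA in the pooled levels was otherwise not tested.

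**Figure D3:**
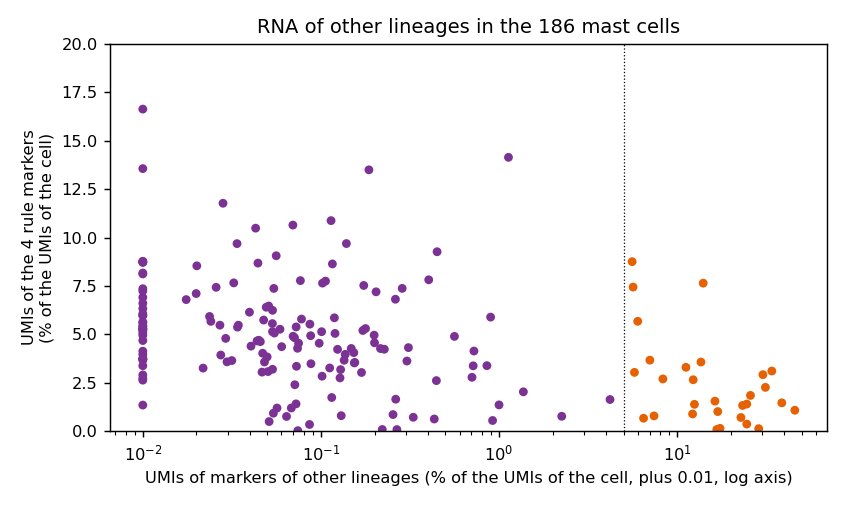
Each point is a mast cell, with the percentage of its UMIs in markers of other lineages (log axis, 0.01 added) against the percentage in the 4 rule transcripts. The 29 cells to the right of the dotted line at 5% are in orange, and most of them lie in the lower part of the vertical axis.

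The markers of the remaining lineages were taken list by list. The 10 monocyte and macrophage markers summed to 1763 CPM, most of it Lyz2, when compared to 10003 CPM in other cells, and all 10 were called lower, except that the call of Csf1r was lost without library 3. Lyz2 had 444 CPM in the 157 mast cells and 3549 CPM in the 29. The 7 B cell markers, all called lower, summed to 81.6 CPM with the most UMIs in Ighm and Ms4a1 at 0. The 6 T cell markers summed to 31.6 CPM with the most UMIs in Trbc2, and none was called, although 3 were called lower when library 2 was left out. T cell transcripts were found in 6 mast cells, and Cd3d had 57.0 CPM in library 2, 11.5 CPM in library 3 and 0 in the other 4 libraries. Of 7 fibroblast markers, 5 were at 0 and Dcn and Col1a1 had 4 and 2 UMIs, and of 7 erythroid and platelet markers, 4 were at 0 and Pf4 had 11 UMIs. All 5 tested genes of either list were called lower. Of the fibroblast genes 3 were called without the 29 cells, with Col1a1 and Col3a1 not called, and 3 to 5 with 1 library left out. Ptprc, which encodes the CD45 used as the gate, had 662 CPM in mast cells and 765 CPM in other cells, and none of the 4 genes of the leukocyte gate list was called. Without the 29 cells Itgam, an integrin subunit of myeloid cells, went from 82.5 to 13.8 CPM and was called lower. Vim, an intermediate filament of leukocytes, had 3215 and 1867 CPM.

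To describe the transcripts of mast cells, levels were set against all other cells, and a gene was called at a ratio of 4-fold or more. Among 10414 genes with at least 5 CPM on either side, 680 (6.53%) were called higher in mast cells and 534 (5.13%) lower, and the median fold was 0.866. Of the 680, 434 were higher in each of the 6 libraries, and in 424 the lowest library of mast cells lay above the highest library of other cells. Over all tested genes, 7.5% lay apart in this way and 12% lay apart in the opposite direction. With 1 pooled value on each side there is no test, and a list is read against these shares and that median.

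Granule proteases are the group the rule was built on. All 4 rule transcripts were above other cells in every library, as their choice requires. Mcpt4 had 17517 CPM (95% exact Poisson interval 17275 to 17762), with a lowest library of 14574, a median of 18765 and a highest of 21480 CPM. Cma1 had 9502 CPM and ranged from 6947 to 13903 CPM. Cpa3 had 6185 CPM (4759 to 9690 over libraries), and Tpsb2 had 6108 CPM (4780 to 10608). Library 3 was the highest in each of the 4, and library 5, which held the most cells at or above 5%, the lowest in 3 of them. The counting interval of each pooled level was narrower than the range over libraries.

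Of 11 further protease genes, 8 were in the table, and 3 of these were called higher and none lower, with a median fold of 1.91. Tpsab1, a second tryptase gene at chr17:25343245-25345562, had 1399 CPM (895 to 2038 over libraries) and was 3837-fold above other cells. Tpsg1, which encodes a membrane-anchored tryptase, had 233 CPM (172 to 315). Prss34, best known from basophils, had 70.2 CPM (11.5 to 187) and was 26.7-fold above other cells, but basophil-type cells held 1336 CPM. The lysosomal protease gene Ctsd, at 440 CPM in mast cells and 334 CPM in other cells, was not called. The transcripts of Tpsb2 and Tpsab1 were 69.2% identical over their aligned bases and those of Mcpt4 and Cma1 70.3%.

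Genes of proteoglycan and amine storage were called higher in 8 of 10 cases, with a median fold of 15.9 and none lower. Hdc, which makes histamine from histidine, had 4496 CPM (2836 to 6451 over libraries). It was 8.82-fold above other cells, among which neutrophil-type cells held 1058 CPM. Slc18a2, the vesicular monoamine transporter, had 451 CPM (293 to 575) and was 82.0-fold above other cells. Tph1, which makes the precursor of serotonin, had 336 CPM (269 to 654) and was 3883-fold above other cells, and Ddc, the decarboxylase of the next step, had 93.9 CPM. Srgn, the serglycin core protein, had 3041 CPM in mast cells and 1964 CPM in other cells and was not called. Of the enzymes that build heparan sulfate and heparin, Ext1 had 4617 CPM (19.5-fold), Ndst2 175 CPM (24.9-fold) and Hs6st1 93.0 CPM (6.80-fold). Slc29a1, a nucleoside transporter, had 218 CPM (12.3-fold).

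The IgE receptor was found with all 3 subunits. Ms4a2, the beta subunit, had 405 CPM (344 to 596 over libraries) and was 279-fold above other cells. Fcer1a, the alpha subunit that binds IgE, had 324 CPM (201 to 677) and was 378-fold above. Fcer1g, the gamma subunit that other Fc receptors share, had 1696 CPM in mast cells and 1253 CPM in other cells and was not called. A UMI of Fcer1a was found in 49.5% of mast cells, and after thinning each cell to 2000 UMIs, which left out 31 of the 186, in 38.1%. The thinned share was 0.0215% in neutrophil-type and 0.0493% in B-type cells, whose median depths were 8736.5 and 6032 UMIs. For Ms4a2 the shares in mast cells were 77.4% before and 58.7% after thinning.

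Over all 14 genes of the IgE receptor and its signalling, 6 were called higher and none lower, with a median fold of 2.26. Lat2 (453 CPM, 9.40-fold) and Lat (83.3 CPM, 11.5-fold), adaptor proteins under the receptor, were among them, as was Plcg1 at 54.4 CPM (9.01-fold). The kinase gene Fyn, at 863 CPM, stood at 4.01-fold and lost the call in 3 of the 6 settings that leave out 1 library. Lyn (982 CPM), Gab2 (592 CPM), Inpp5d (582 CPM), Syk (198 CPM), Btk (181 CPM) and Lcp2 (153 CPM) were not called. Syk was lower in mast cells than in other cells in every library without reaching 4-fold.

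Of 33 surface receptor genes, 31 were tested, 12 were called higher and 1 lower, with a median fold of 2.62. Kit had 1312 CPM (937 to 1639 over libraries) and was 82.3-fold above other cells. Il1rl1, the receptor of interleukin-33, had 1339 CPM (1149 to 1540) and was 165-fold above. Kit was found in 86.5% and Il1rl1 in 78.1% of thinned mast cells, when compared to 0.969% and 0.323% of neutrophil-type cells. For both genes, all 6 libraries of mast cells lay above all 6 of other cells.

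Mas-related receptors, through which cationic peptides and drugs activate mast cells without IgE, had large folds over other cells. Mrgprb1 (chr7:48444113-48456342) had 1447 CPM (913 to 1815 over libraries) against 0.272 CPM in other cells. Mrgprb2 (chr7:48550965-48558086), the mouse receptor studied most for this response, had 261 CPM (190 to 320) against 0.0618 CPM. Mrgprx2 (chr7:48478619-48499321) had 364 CPM (261 to 538) against 0.0412 CPM, or 8836-fold. The other cells here include the 11 cells with Mcpt8, and without them, an alternative added after the values were seen, Mrgprx2 had 0.0124 CPM in other cells on 6 UMIs. Their transcripts were 72.8% to 76.8% identical in pairs. After thinning, Mrgprb1 was found in 87.1% of mast cells, 65 of 155 cells (41.9%, with a product of the shares of 38.2%) held both Mrgprb1 and Mrgprb2, and 3 held Mrgprb2 alone.

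The shared beta chains of the interleukin-3 receptor family, Csf2rb and Csf2rb2, had 811 CPM (4.93-fold) and 301 CPM (13.1-fold). Their transcripts were 91.3% identical, so their separate levels are uncertain. Cd200r3, an activating receptor of mast cells and basophils, had 354 CPM (385-fold), Adora3, an adenosine receptor, 318 CPM (187-fold), and Itga2, the integrin subunit for collagen, 304 CPM (107-fold). Itga2 was highest in library 1 at 562 CPM and lowest in library 2 at 130 CPM. Cd81, a tetraspanin, had 292 CPM (4.27-fold). Cd200r1 (97.4 CPM, 5.25-fold) and the ATP receptor gene P2rx1 (44.7 CPM, 16.3-fold) were called as well, and C3ar1, the receptor of complement C3a, was called lower at 18.4 CPM. It had 11.3 CPM without the 29 cells, and its call was lost without library 3. Cd63 (684 CPM), which moves to the surface on degranulation, was not called, nor were Lilrb4a (669 CPM), Cd9 (293 CPM), Il10ra (219 CPM), Itgb1 (218 CPM), Fcgr3 (133 CPM), C5ar1 (109 CPM), Fcgr2b (105 CPM) and Il1rap (104 CPM). C5ar1 had 16.3 CPM in the 157 mast cells under 5% and 324 CPM in the 29 others, and was called lower without the 29. Cd9 went from 293 to 96.5 CPM and was likewise called lower, as was Adora2b on a low level, and Il10ra was called higher at 247 CPM. Itgae, an integrin of epithelial mast cells, had no UMI, where 3 UMIs would be 2.63 CPM.

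Among 17 transcription factor genes 4 were called higher and 1 lower, with a median fold of 0.899. Gata2, which mast cells need, had 739 CPM (505 to 1468 over libraries, highest in library 6) and was 134-fold above other cells. Meis2 had 468 CPM (344 to 623) and was 1102-fold above, and Tal1 had 186 CPM (40.2-fold). Gata1 was called on 16 UMIs. Mitf, the factor of Kit signalling, had 285 CPM in mast cells and 79.9 CPM in other cells, or 3.57-fold, and was higher in each library. Without the 29 cells it had 332 CPM, or 4.15-fold, and was called. Zeb2 (1354 CPM), Runx1 (401 CPM), Fli1 (203 CPM), Ikzf1 (168 CPM), Erg (137 CPM), Lmo4 (132 CPM), Bhlhe40 (126 CPM) and Spi1 (117 CPM) were not called, and Cebpa, which basophils use, was called lower at 5.26 CPM. Without the 29 cells Cebpa had 1.25 CPM, and Spi1 had 70.2 CPM and was called lower.

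Of 10 tested exocytosis genes 2 were called higher and 1 lower, with a median fold of 0.922. Rab27b, a small GTPase of granule docking, had 998 CPM (721 to 1365 over libraries) against 4.54 CPM in other cells. Its relative Rab27a had 28.9 CPM in mast cells and 70.7 CPM in other cells and was not called. Stx3, a syntaxin, had 151 CPM (7.55-fold), while Vamp8 (181 CPM), Snap23 (154 CPM) and Stx11 (153 CPM) were not called. Without the 29 cells Stx11 had 38.9 CPM and was called lower. Cplx2, the gene called lower with all cells, had 1 UMI, and its call was lost without library 2.

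Of 11 tested eicosanoid genes, 2 were called higher and 2 lower, with a median fold of 0.542. Hpgds, which makes prostaglandin D2, had 299 CPM (244 to 359 over libraries) and was 21.6-fold above other cells. Ptger3, a receptor of prostaglandin E2, had 27.2 CPM (26.1-fold). Ltc4s, which makes leukotriene C4, had 7.90 CPM in mast cells and 20.4 CPM in other cells and was not called. The genes called lower were Ptgs1 with 3 UMIs and Cysltr1 with 2, and the call of Ptgs1 was lost without library 5. Alox5ap (411 CPM), Pla2g7 (180 CPM) and Ptgs2 (102 CPM) were not called. Alox5ap had 178 CPM and Ptgs2 47.6 CPM in the 157 cells under 5%, and 952 and 228 CPM in the 29 others.

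Of 24 tested cytokine, chemokine and growth factor genes, 11 were called higher and 4 lower, with a median fold of 2.89. Ccl7 and Ccl2 encode chemokines that draw monocytes through the receptor CCR2, and both were called higher. Ccl7 (chr11:82045712-82047525) had 5853 CPM, lowest in library 4 at 3361, with a median of 5903 and a highest value of 7539 CPM in library 6. Ccl2 (chr11:82035571-82037453) had 2605 CPM, lowest in library 4 at 1992 and highest in library 3 at 3295 CPM. Other cells held 173 and 268 CPM, and their highest libraries, at 541 and 775 CPM, lay below the lowest library of mast cells. After thinning, 85.2% of mast cells held Ccl7 and 85.2% held Ccl2, when compared to 0.463% and 0.991% of neutrophil-type cells. Both were found in 121 of 155 thinned mast cells and neither in 12, so 78.1% held both where the product of the shares is 72.5%. The spread between cells was wide, since the quartiles of Ccl7 were 2, 10 and 22 UMIs of 2000 and its highest count was 61.

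The type 2 cytokines Il13 and Il4 were also found in the mast cells. Il13 had 463 CPM, lowest in library 2 at 220 and highest in library 6 at 633 CPM, and was 217-fold above other cells. Il4 had 376 CPM, lowest in library 5 at 242 and highest in library 4 at 524 CPM, and was 181-fold above. Each was found in about the same share of thinned cells, 49.0% for Il13 and 47.1% for Il4. In neutrophil-type cells the shares were 0.0215% and 0.0323%. In these 155 cells 43 held both, 33 Il13 alone, 30 Il4 alone and 49 neither, so 27.7% held both where the product of the shares is 23.1%. Il5, the third cytokine of this locus, had no UMI, where 3 UMIs would be 2.63 CPM, and neither had Il33 or Tnfsf11.

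Tnf had 345 CPM (264 to 443 over libraries) and was 6.28-fold above other cells. Csf1, the growth factor of macrophages, had 198 CPM (148 to 269, 7.34-fold) and Il6 had 83.3 CPM (11.04 to 179, 7.48-fold). Lif (35 UMIs), Calca (29 UMIs), Csf2 (26 UMIs) and Ccl1 (16 UMIs) completed the 11, each at 0 in at least 1 library. Osm (356 CPM), Tgfb1 (178 CPM), Ccl4 (142 CPM) and Vegfa (118 CPM) were not called. The genes called lower were Ccl3 (21.1 CPM), Ccl9 (30.7 CPM), Areg (2.63 CPM) and Cxcl1 (1.75 CPM).

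Il1b and Cxcl2 differed between the mast cells under 5% and those at or above 5% of UMIs of other lineages. Il1b had 826 CPM in mast cells and 1473 CPM in other cells, with a lowest library of 31.7 CPM in library 6 and a highest of 1284 CPM in library 1. Cxcl2 had 460 CPM, between 10.6 and 912 CPM in the same libraries. In the 157 cells under 5% Il1b had 155 CPM and Cxcl2 89.0 CPM, and in the 29 others they had 2390 and 1323 CPM. Both were called lower without the 29 cells, where Ccl9 had 20.1 CPM and Areg 1.25 CPM. Several cytokines called higher had lower levels in the cells at or above 5%. Ccl7 had 7084 CPM in the 157 cells and 2986 CPM in the 29, Il13 592 and 164 CPM, and Tnf 414 and 184 CPM, and without the 29 cells 13 of 25 tested cytokine genes were called higher and 6 lower, where 8.2% and 8% of all tested genes were. Pdgfa and Fgf2 were the genes added to those called higher, at 33.9 and 5.01 CPM.

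Immediate-early genes are transcribed within minutes of receptor or stress signals. The joints were digested with enzymes before the cells were sorted, so RNA made in the joint and RNA made during digestion cannot be told apart. Of 17 immediate-early and stress genes 10 were called higher and none lower, with a median fold of 4.94. Fos had 5091 CPM (3241 to 6809 over libraries), Jun 4789 CPM (2859 to 5615) and Egr1 3990 CPM (2762 to 4470). The folds over other cells were 5.33, 12.5 and 23.1, and the libraries of mast cells lay above all libraries of other cells in 13 of the 17 genes. Fosb (2687 CPM, 11.5-fold), Dusp1 (2347 CPM, 4.73-fold), Nr4a1 (1728 CPM, 6.26-fold), Nr4a3 (1049 CPM, 7.64-fold), Nr4a2 (872 CPM, 4.94-fold) and Egr2 (123 CPM, 6.11-fold) were called as well, and Egr3 was called on 7 UMIs, a call lost without library 3, 5 or 6. Junb (3061 CPM), Jund (2146 CPM), Zfp36 (1540 CPM) and Ier2 (1027 CPM) were not. Fos and Egr1 were found together in 131 of 155 thinned mast cells, or 84.5%, near the 81.6% that the product of their shares gives.

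Atf3 and the heat shock genes did not share this pattern. Atf3 had 183 CPM in mast cells and 264 CPM in other cells, Hspa1a 162 and 278 CPM, and Hspa1b 111 and 140 CPM. Hspa1a in mast cells was lowest in library 3 at 11.5 CPM and highest in library 5 at 305 CPM. With 1 library left out, Hspa1b in mast cells ran from 68.3 to 128 CPM. Without the 29 cells at or above 5%, 11 of the 17 genes were called higher, Ier2 (1187 CPM) being the one added, where 8.2% of all tested genes were.

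**Figure D4:**
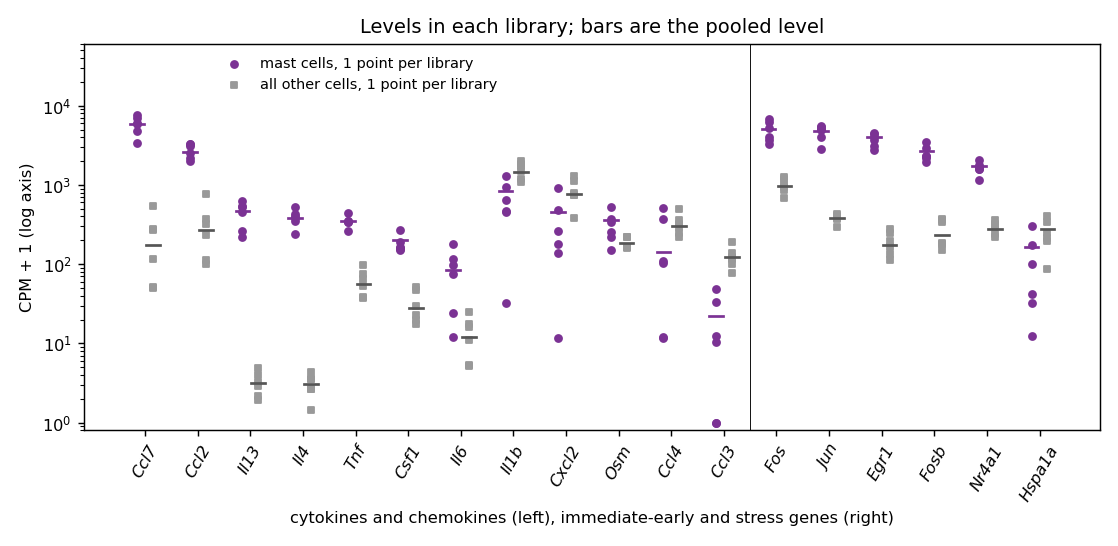
Levels (CPM + 1, log axis) of cytokine and chemokine genes on the left and of immediate-early and stress genes on the right are plotted for each of the 6 libraries, in mast cells (circles) and in all other cells (squares), with the pooled level as a bar. Ccl7, Ccl2, Il13, Il4, Tnf, Csf1 and the first 5 genes on the right have all mast cell libraries above all other libraries, while Il1b does not.

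Of 10 cell cycle genes 5 were called lower in mast cells, none higher and 5 were not called, with a median fold of 0.247. Mki67, a marker of dividing cells, had 24.6 CPM in mast cells and 161 CPM in other cells, Top2a had 31.6 and 170 CPM, and Pcna had 93.0 and 72.6 CPM. With 1 library left out, Top2a in mast cells ran from 17.4 to 43.9 CPM. Ccnb1, Mcm5 and Tyms were also called lower, on 4 to 6 UMIs, and 4 to 6 of the 10 were called with 1 library left out. The call of Ccnb1 was lost without library 1, 4, 5 or 6. Mki67 had 65.2 CPM in library 2 and 50.9 CPM in library 5 and between 0 and 10.6 CPM in the other 4. A Mki67 UMI was found in 5.91% of mast cells, and after thinning in 1.94%, when compared to 11.3% of neutrophil-type and 12.8% of B-type cells.

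Genes of the pathway from which the study's peptide comes were measured too. Ywhaz encodes the 14-3-3 zeta/delta protein, from which PEPITEM is cut. Adiponectin makes B cells give off the peptide, which acts on sphingosine-1-phosphate release. Of 12 tested genes of this pathway 1 was called higher and 2 lower, with a median fold of 1.43. Adipor1 and Adipor2, the adiponectin receptors, had 120 CPM (57.4 to 153 over libraries) and 133 CPM (89.6 to 160), when compared to 145 and 98.7 CPM in other cells. In the 157 mast cells under 5% Adipor1 had 82.7 CPM and Adipor2 140 CPM, and in the 29 others these receptors had 207 and 117 CPM. Their adaptor gene Appl1 had 161 CPM and Ywhaz 568 CPM (454 to 741), and other cells held 53.1 and 377 CPM. The gene called higher was S1pr3, a sphingosine-1-phosphate receptor, at 65.8 CPM (11.5 to 139) and 27.6-fold above other cells. Sgpl1, the lyase that degrades the lipid, had 396 CPM (3.68-fold) and Ncam1 152 CPM (1.54-fold). Sgpl1 was called higher without the 29 cells, at 483 CPM, and without library 3 or library 4. Sphk1 and the transporter gene Spns2 had no UMI, where 3 UMIs would be 2.63 CPM. S1pr4 (4.39 CPM) and Sphk2 (3.51 CPM) were called lower on 5 and 4 UMIs. Both calls were lost in some of the settings that leave out 1 library.

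The 25 largest folds over other cells are given among genes with at least 50 CPM in mast cells, found in at least 25% of them and higher in each of the 6 libraries. Besides the 4 rule transcripts these genes were Mrgprx2, Mrgprb1, Mrgprb2, Tpsg1, Tpsab1, Tph1 and Meis2, described above, and Cobl, Gnai1, Hs6st2, Grik2, Maob, Slc6a4, Atp8b5, Gm12648, Stk32b, Lsamp, Cntn4, Stard13, Sgcd and Rbfox1. Several of the latter are best known from neurons. Some are long genes, such as Lsamp at chr16:39984361-42181679 and Rbfox1 at chr16:5885355-7411526. Whether the UMIs of these genes came from introns or from spliced RNA was not tested. Slc6a4, the serotonin transporter, had 550 CPM (321 to 802 over libraries), and Maob, which degrades amines, had 550 CPM (386 to 905). Lsamp and Cntn4, neuronal adhesion proteins, had 1100 CPM (916 to 1732) and 175 CPM (143 to 321), Grik2, a glutamate receptor subunit, had 385 CPM (310 to 469), and Rbfox1, a splicing factor, had 182 CPM (114 to 310). Hs6st2, a sulfotransferase for heparan sulfate, had 1350 CPM (1100 to 1763). Cobl, an actin nucleator, had 739 CPM, Gnai1, an inhibitory G protein subunit, 846 CPM, and Sgcd, a sarcoglycan, 790 CPM. The folds of the 25 ran from 653 for Rbfox1 to 8836 for Mrgprx2. Their sizes and order rest in part on the 11 cells with Mcpt8 among the other cells. Without those cells the 25 genes with the largest fold were still the same, and the folds rose by 1.04 to 39.4 times, to between 694 for Rbfox1 and 202412 for Mcpt4, with Mrgprx2 in position 6.

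Among genes with at least 50 CPM in other cells, found in at least 25% of them and lower in mast cells in each of the 6 libraries, the 10 furthest below were Aff3, Tmem176b, Arhgap10, Tifa, Ighm, Lair1, Spp1, Fn1, Cd83 and Zdhhc14, by 7.84-fold to 17.96-fold. Aff3 had 15.8 CPM in mast cells and 284 CPM in other cells. Spp1, which encodes osteopontin, had 36.0 and 320 CPM, and Fn1, which encodes fibronectin, 60.5 and 529 CPM. Without the 29 cells mast cells held 15.04 CPM of Spp1 and 28.8 CPM of Fn1, and Tmem176b, Arhgap10, Tifa and Zdhhc14 were also over 1.5 times lower, at 1.25 to 5.01 CPM. Ighm, the heavy chain of IgM, had 48.2 and 619 CPM.

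Basophils share the IgE receptor and histamine with mast cells, so 61 basophil-type cells, with at least 2 of Mcpt8, Prss34 and Cd200r3 and outside the mast cells of the rule, were compared next. The other sets of compared cells leave out the mast cells as well, and Mcpt8 was found in 100% of the 61. Of the 61, 28 came from library 2, and 7 also held at least 2 of the mast cell rule transcripts with Mcpt8. Levels are given for the 54 other basophil-type cells, a choice made after the values were seen that removes cells for holding mast cell transcripts, and for all 61 where they moved by more than 1.5 times. Of 10370 genes tested against all 61 cells, 496 (4.78%) were called higher and 401 (3.87%) lower in mast cells. Of 10337 genes tested against the 54, 580 (5.61%) were called higher and 433 (4.19%) lower.

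Several transcripts were shared. Ms4a2 had 405 CPM in mast cells and 325 CPM in the 54 basophil-type cells, Fcer1a 324 and 269 CPM, and Gata2 739 and 840 CPM. Hdc had 4496 and 3012 CPM, Slc18a2 451 and 575 CPM, and Il4 376 and 354 CPM. Cyp11a1, which starts steroid synthesis, had 890 and 488 CPM.

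Chemokine levels differed between the sets. Ccl7 had 5853 CPM in mast cells, 385 CPM in all 61 basophil-type cells and 1.12 CPM in the 54, and Ccl2 had 2605, 156 and 30.4 CPM. The low values of the 54 thus follow from leaving out the 7 cells. In libraries 1 and 5, all basophil-type cells together held 5461 and 1089 CPM of Ccl7, and in the other 4 libraries at most 42.0 CPM. Ccl3 had 21.1 CPM in mast cells and 5006 CPM in basophil-type cells, and Ccl4 had 142 and 9457 CPM. Il6 had 83.3 and 1678 CPM and Il1b 826 and 4074 CPM. Of 23 cytokine genes tested against all 61 cells, 7 were called higher and 7 lower in mast cells. In thinned cells of all 61, Ccl3 was found in 67.8% and Il6 in 64.4%, when compared to 1.94% and 11.6% of mast cells. Ccl3 per library of basophil-type cells lay between 1119 and 18437 CPM, with no overlap with the 0 to 47.9 CPM of mast cells, although library 4 held only 2 basophil-type cells.

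Kit had 1312 CPM in mast cells, 141 CPM in all 61 basophil-type cells and 47.2 CPM in the 54. Il1rl1 had 1339, 237 and 129 CPM, Rab27b 998, 92.5 and 27.0 CPM, and Ext1 4617, 439 and 96.7 CPM in the same sets. In all 61 cells Tpsab1 had 158 CPM, Mrgprb1 99.9 CPM, Meis2 38.9 CPM, Tph1 26.3 CPM, Mrgprb2 24.2 CPM and Tpsg1 12.6 CPM. All UMIs of these 6 genes in the set lay in the 7 cells left out. Of 17 immediate-early and stress genes 7 were called higher than in all 61 cells and none lower, and Egr1 had 3990 CPM in mast cells, 609 CPM in all 61 and 352 CPM in the 54. Against all other cells, 5 of the 8 basophil markers in the table were called higher and 1 lower in mast cells, the former being Prss34, Cd200r3, Itga2, Il4 and Fcer1a, and Ccl6 (196.5 CPM) was not called. Ccl6 had 18.8 CPM in the 157 mast cells and was then called lower, and 611 CPM in the 29 others. Prss34 and Mcpt8, which entered the choice of the basophil-type cells, had 70.2 and 0 CPM in mast cells and 1430 and 2085 CPM in the 54.

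Innate lymphoid cells of type 2 share Il1rl1 and Il13 with mast cells. A set of 175 such cells was taken with at least 3 of Gata3, Il1rl1, Il5, Rora and Areg and no Cd3e. The set held fibroblast RNA, with 368 CPM of Col1a2, and leaving out 2 cells with collagen or Dcn transcripts changed Il1rl1 from 835 to 853 CPM. Of 10631 genes tested, 596 (5.61%) were called higher and 778 (7.32%) lower in mast cells. Il13 had 463 CPM in mast cells and 359 CPM in the lymphoid-type cells, and Kit had 1312 and 267 CPM. Il5 had 0 and 452 CPM and Areg 2.63 and 854 CPM, but both had entered the choice of the lymphoid-type cells. Against all other cells, 2 of 7 tested markers of these lymphoid cells, Il1rl1 and Kit, were called higher and Rora and Areg lower, while Ly6a (411 CPM) was not called, except without library 1. Csf2, encoding a growth factor of myeloid cells, had 22.8 and 158 CPM.

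Precursors of mast cells carry Cpa3 and Gata2 at low levels, and 735 progenitor-type cells, with at least 2 of Meis1, Mecom, Angpt1 and Hlf, were the third set. The sets overlap, since 13 of the 735 were also basophil-type and 21 lymphoid-type cells. Of 11189 genes tested, 693 (6.19%) were called higher and 1159 (10.4%) lower in mast cells. Cpa3 had 6185 CPM in mast cells and 129 CPM in progenitor-type cells, Gata2 739 and 93.1 CPM, and Kit 1312 and 136 CPM. In the 701 progenitor-type cells in neither other set, an alternative added after the values were seen, Cpa3 had 84.2 CPM, Gata2 86.5 CPM and Kit 132 CPM. Mcpt4 had 17517 and 2.66 CPM, with no UMI in the 701 cells, and Tpsb2 had no UMI in progenitor-type cells. The progenitor-type set also held 1086 CPM of Dcn, and without its cells with collagen or Dcn transcripts Cpa3 had 139 CPM and Ccl7 2.73 instead of 152 CPM. The 8 progenitor markers were called lower in mast cells in all 8 cases, 4 of which had entered the choice. Against all other cells, 1 of 7 tested progenitor markers, Adgrg1, was called lower, on 3 UMIs.

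**Figure D5:**
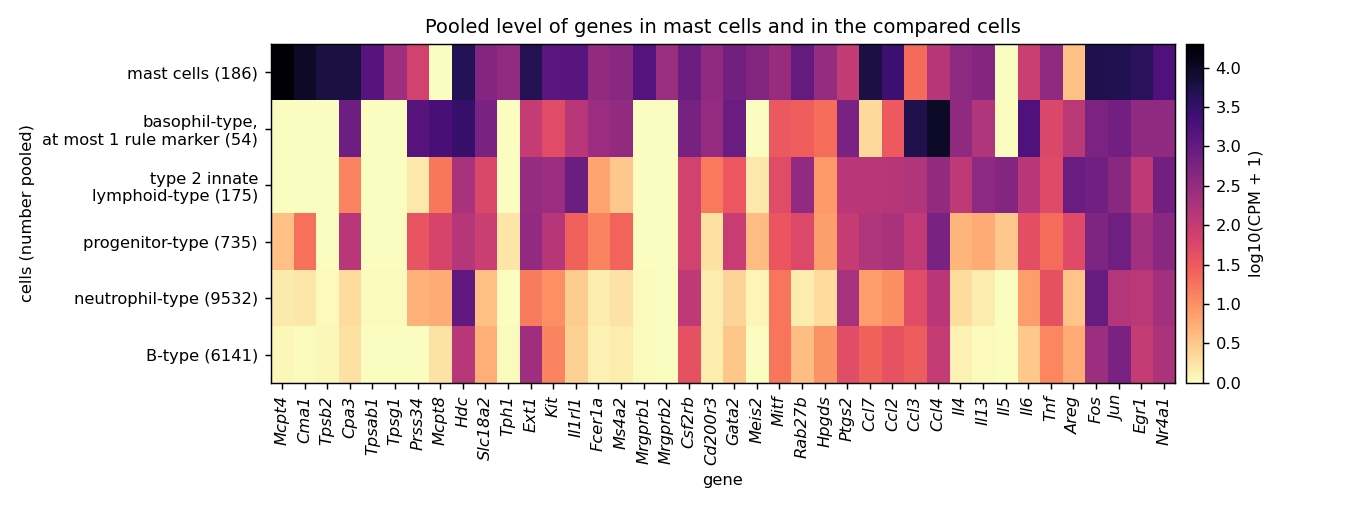
Colour gives log10(CPM + 1) of 40 genes (columns) in the 186 mast cells and in 5 compared sets of cells (rows), pooled over libraries, with the 54 basophil-type cells in the basophil-type row. The protease, Mas-related receptor, Ccl7 and Ccl2 columns are darkest in mast cells, Ccl3, Ccl4, Il6, Prss34 and Mcpt8 in basophil-type cells, and Hdc, Fcer1a, Ms4a2 and Gata2 are dark in both.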

How the data were processed

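CD45-positive cells of the synovium from 6 samples were profiled. Per the submitters' processing notes, Cell Ranger 7 and mm10 were used. The authors removed ambient RNA (SoupX) and doublets (DoubletFinder) and filtered cells in Seurat. Whether the deposited counts were made before or after the removal of ambient RNA was not tested. The deposited values are counts of UMIs, not scaled for depth, in 1 matrix of 20394 genes and 32953 cells. Its cells hold 501 to 6998 genes and at most 9.99% mitochondrial UMIs. Cells could not be linked to PBS or PEPITEM, so the comparison planned for these groups was not run.

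The rule, the gene lists and the compared sets were chosen with earlier results of these data known. UMIs were summed over cells and scaled to CPM. Genes with at least 5 CPM on either side were tested, a count under 3 was set to 3 on either side, and 4-fold was a call. Genes were named from the lists at 100 CPM or more in mast cells (otherwise the 3 highest), plus Ptprc, Adipor1, Adipor2 and Ywhaz. Named as well were the 25 highest and 10 lowest folds among genes with at least 50 CPM in the higher group, found in at least 25% of its cells and different the same way in each of the 6 libraries. Other genes below these levels (called genes, genes without a UMI and genes set against a compared set) were named after their values were seen. Cells were thinned to 2000 UMIs at random without replacement (seed 1), leaving out 579 shallower cells, 31 of them mast cells. Intervals are exact (95%) and cover counting error only. The fold calls were tested on simulated data with 200 changed genes. Scripts ran in Python 3.11.15 (pandas 2.3.3, scipy 1.17.1, numpy 2.4.6) and figures were drawn in matplotlib 3.10.9. Alternatives were other member rules, thresholds, weights of cells or libraries, and leaving out each library in turn.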

Additional observations from a re-analysis of the deposited data

How the results depend on the processing

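The share of mast cells (0.564%) was 1.6% with 1 rule transcript enough, 0.476% without the cells at or above 5% of UMIs of other lineages and 0.479% with all cells thinned to 2000 UMIs, and it stayed within its counting interval with 3 transcripts, 10 summed UMIs, no condition on Mcpt8, 3 of the 12 markers or the median library. Leaving out 1 library at a time gave 0.5% to 0.661%, the highest without library 6. The 680 genes called higher became 1420 at 2-fold and 404 at 8-fold, which the thresholds themselves set, 653 to 708 with 1 library left out and 871 without the cells at or above 5% of UMIs of other lineages. The count that differed from basophil-type cells (897) was 800 to 950 with 1 library left out. It was 1214 without the cells at or above 5% of UMIs of other lineages. Of 134 called list or leading genes, none changed direction against other cells under any of 11 settings. The choice of the genes largely set this in advance, since all had passed 4-fold. The leading genes had also been required to differ the same way in each of the 6 libraries. Of the 134, 85 moved beyond their counting interval without the cells at or above 5%. With each cell weighted equally 76 of the 134 moved. Levels then went both ways, since Il1b went from 826 to 440 CPM, Cxcl2 from 460 to 232 CPM and Mki67 from 24.6 to 12.5 CPM, but Csf2 from 22.8 to 44.8 CPM. Of the 269 listed or leading genes, 30 changed their call when 1 of the 6 libraries was left out. No paired analysis was possible because the table's library numbers are linked to no sample and no comparison of groups was made. Depth limits the values for scarce genes: 3 UMIs in all mast cells are 2.63 CPM.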
